A study of Mus musculus with 6 samples.

Results

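The miR-148 and miR-152 family comprises the miRNAs of 3 mouse genes, Mir148a, Mir148b and Mir152, whose 3p arms share a seed, the stretch from base 2 to base 8 with which a miRNA recognises its target mRNAs. Its members were taken by name from the deposited table of small RNA reads in serum exosomes, small vesicles shed by cells and carried in blood. They are mmu-miR-148a-3p, mmu-miR-148b-3p, mmu-miR-152-3p, mmu-miR-148a-5p and mmu-miR-148b-5p, that is 5 of the 1982 miRNAs listed. All 5 had counts, and 3 of them, the 3p members, had enough counts to be among the 259 miRNAs tested. The family was picked from an earlier result of these data, the higher level of miR-148a-3p with Acu/LFES, so its differences between the groups are given as a description. Where members are counted at a p threshold, the count is part of that description, and no p of a member is read as support.

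The mice were male C57BL/6 mice aged 3 months. The Acu/LFES group, mice 4, 5 and 6, was stimulated at 20 Hz and 1 mA for 30 min through needles in the hindlimb (acupuncture with low frequency electrical stimulation). The sham group, mice 1, 2 and 3, had needles placed nearby and wired to the device without current. Each mouse gave 1 library, prepared from the exosome pellet of its serum, and the interval between stimulation and blood collection is not given in the sources used here. Total counts ranged from 391708 to 658833 in the sham mice and from 517421 to 1504137 in the Acu/LFES mice. The levels below are normalized counts in CPM, that is counts per 1000000 of a library size which edgeR's TMM factors scale to make the bulk of miRNAs comparable between libraries. In Acu/LFES mouse 6 the red-cell miRNAs miR-486a-5p and miR-486b-5p took 29.2% of the counts (both are listed with identical counts), against 61.7% to 74.0% in the other 5 mice, and its TMM factor was 2.12 against 0.65 to 1.11. The results are therefore also given without it. In a pellet, more vesicles of a given source and more miRNA per vesicle cannot be told apart.

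A miRNA hairpin is cut into a duplex whose 5p and 3p arms may both be found, and the arm that is loaded into Argonaute guides it to sites in mRNA. In this family the 3p arm is the usual guide. miR-148a-3p is a major miRNA of the liver, where it targets the LDL receptor, and it has also been described in muscle differentiation. Dnmt1, the maintenance DNA methyltransferase, is a known target of the family. The mature sequences are shown because the difference between members is small enough to bear on how reads were assigned. They are from RefSeq on GRCm38.p6, 5′ to 3′, with the seed in capitals.
miR-148a-3p: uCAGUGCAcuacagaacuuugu
miR-148b-3p: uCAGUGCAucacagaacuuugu
miR-152-3p: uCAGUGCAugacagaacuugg
miR-148a-5p: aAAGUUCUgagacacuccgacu
miR-148b-5p: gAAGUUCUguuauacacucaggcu
miR-152-5p: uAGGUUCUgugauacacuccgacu

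Counted from 1 at the 5′ end, miR-148b-3p differs from miR-148a-3p by C9U and U10C. miR-152-3p, which is 1 base shorter, differs from miR-148a-3p by C9U, U10G and U20G, and from miR-148b-3p by C10G and U20G. All of these positions lie outside the seed. miR-148a-5p and miR-148b-5p also share a seed, and that of miR-152-5p, listed in the table but not among the 5 members, differs from theirs. Among the 1623 of 1915 mouse miRNAs in the table that had a RefSeq sequence, miR-1960 alone shared bases 2 to 7 with the 3p members outside the family, without sharing base 8, and it had 1 count over all mice. Outside the family the nearest mature sequence to any member had 6 mismatches or more without gaps, and no pair of members was listed with identical counts.

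The hairpins show how the arms face each other, and the annotated arms are in capitals. Mir148a lies on the minus strand at chr6:51269812-51269910 in no annotated gene of GENCODE M21, 163 kb from Nfe2l3, the nearest protein-coding gene. Mir148b lies on the plus strand at chr15:103285125-103285221 in an intron of Copz1, and Mir152 on the plus strand at chr11:96850393-96850465 in an intron of Copz2. Copz1 and Copz2 encode the zeta subunits of the COPI vesicle coat, and both host genes lie on the same strand as their hairpin. The coordinates come from the reference, since the count table gives names alone.
Mir148a: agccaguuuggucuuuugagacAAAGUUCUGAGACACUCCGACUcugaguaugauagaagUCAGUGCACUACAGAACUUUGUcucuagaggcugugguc
Mir148b: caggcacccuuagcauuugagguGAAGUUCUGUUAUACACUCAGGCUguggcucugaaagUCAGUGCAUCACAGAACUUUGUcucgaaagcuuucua
Mir152: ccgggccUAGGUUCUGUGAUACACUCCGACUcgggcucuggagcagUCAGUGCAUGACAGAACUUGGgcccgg

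miR-148a-3p was the most abundant member, at rank 74 of the 259 miRNAs tested by mean level. Its normalized count was 266, 311 and 222 CPM in sham mice 1, 2 and 3, from 184, 133 and 67 counts. In Acu/LFES mice 4, 5 and 6 it was 512, 473 and 569 CPM, from 854, 227 and 622 counts. The groups did not overlap, as in 8.88% of all miRNAs tested with every Acu/LFES mouse the higher, and the lowest Acu/LFES mouse stood 1.52-fold above the highest sham mouse. The means were 266 ± 44.5 CPM with sham and 518 ± 48.2 CPM with Acu/LFES (SD, 3 mice each), and the fitted log2 fold change was 0.96 (standard error 0.29, 95% interval 0.32 to 1.60). Without mouse 6 the log2 fold change was 0.93.

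miR-148b-3p did not separate the groups. It was 129, 95.8 and 189 CPM in the sham mice and 333, 488 and 129 CPM in Acu/LFES mice 4, 5 and 6. Mice 4 and 5 lay above every sham mouse, whereas mouse 6 lay among them. The means were 138 ± 47.1 CPM with sham and 316 ± 180 CPM with Acu/LFES (SD, 3 mice each), which the fit gave as a log2 fold change of 1.20 (standard error 0.51, 95% interval 0.05 to 2.35). It rested most on mouse 5, without which the log2 fold change was 0.79, and it was 1.61 without mouse 6.

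miR-152-3p spread most in the sham group, with 269, 138 and 66.2 CPM in mice 1, 2 and 3, the last from 20 counts. In the Acu/LFES mice it was 304, 267 and 433 CPM. The groups met at their edge, since mouse 5 at 267 CPM lay just under sham mouse 1 at 269 CPM. The means were 158 ± 103 CPM and 335 ± 87.5 CPM (SD, 3 mice each), and the log2 fold change was 1.07 (standard error 0.50, 95% interval -0.04 to 2.18). It depended most on sham mouse 1, without which the log2 fold change was 1.76, and it was 0.85 without mouse 6.

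The 3p members were also summed as a group that shares a seed. Their sum was 663, 545 and 477 CPM under sham and 1149, 1227 and 1131 CPM under Acu/LFES. The groups did not overlap, as in 8.88% of all miRNAs tested with every Acu/LFES mouse the higher. Pooled over mice, miR-148a-3p, on which the family was picked, made up 45.9% of the summed counts in sham and 45.5% in Acu/LFES mice. The separation of the sum is therefore not independent of that choice. The coefficient of variation of the sum was 16.8% in sham mice, about that of miR-148a-3p, and 4.37% in Acu/LFES mice, below that of each member. For single members it went from 16.7% in miR-148a-3p to 65.1% in miR-152-3p among the sham mice, and from 9.30% in miR-148a-3p to 56.8% in miR-148b-3p among the Acu/LFES mice. With the 3 members replaced by their sum in the same fit, the log2 fold change was 1.07 (standard error 0.24, 95% interval 0.53 to 1.60), and without mouse 6 it was 1.13. With the counts of the miR-486 rows left out of the total, the sum was 0.192%, 0.136% and 0.127% of the library in sham mice 1 to 3 and 0.334%, 0.352% and 0.337% in mice 4 to 6, without overlap, and on that scale 12% of all miRNAs tested were higher in every Acu/LFES mouse. As a share of total counts it was 0.0734%, 0.0354% and 0.0368% against 0.127%, 0.0933% and 0.239%, again without overlap, where 15.8% of all miRNAs were higher in every Acu/LFES mouse and none was lower in all of them.

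**Figure D1:**
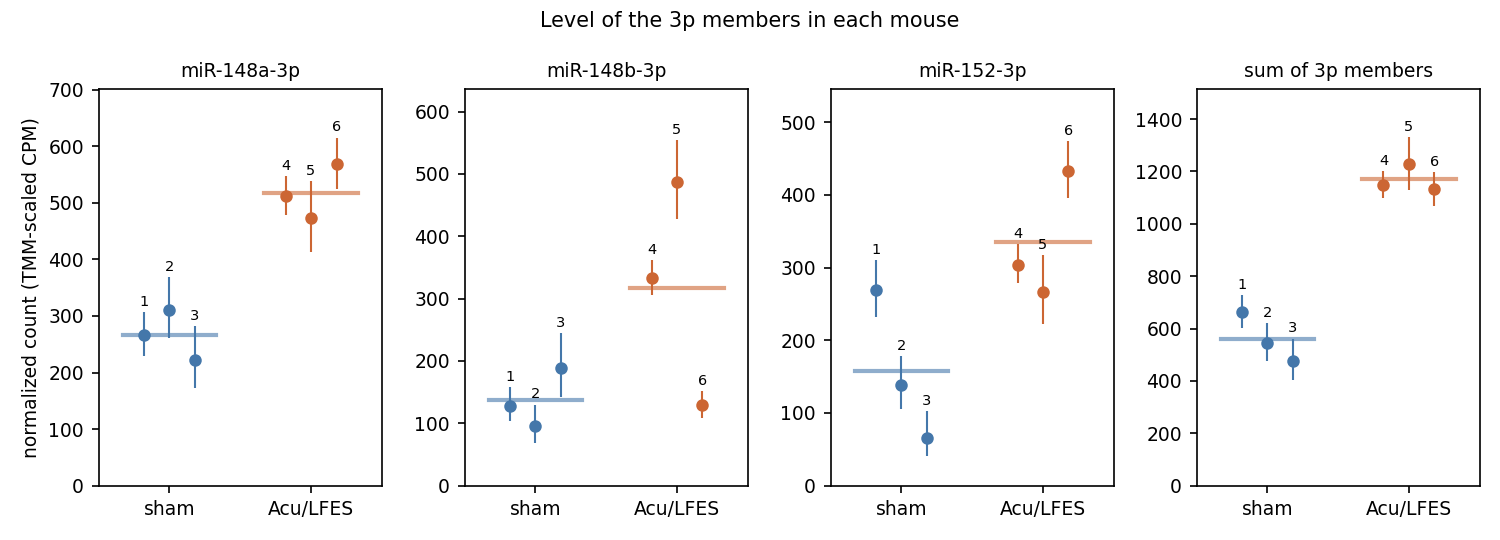
Normalized count (TMM-scaled CPM, linear axis from 0) of each 3p member and of their sum in sham and Acu/LFES mice. Each panel has its own scale, points are mice with their number, vertical lines are exact 95% Poisson intervals for counting error only, and horizontal lines are group means. miR-148a-3p and the sum separate the groups, while miR-148b-3p of mouse 6 (129 CPM) and miR-152-3p of sham mouse 1 (269 CPM) lie within the other group's range or at its edge.

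The 3 tested members had a median log2 fold change of 1.07, against 0.050 over all 259 miRNAs tested, of which 52.9% had a positive log2 fold change. The fold change of 33 miRNAs exceeded that of miR-148a-3p, that of 26 exceeded miR-152-3p and that of 20 exceeded miR-148b-3p. With Benjamini-Hochberg adjustment of the quasi-likelihood test of edgeR, 0 of the 3 members passed an adjusted p of 0.05, as did 0% of all miRNAs tested. At an unadjusted p under 0.05 there were 2 of the 3, miR-148a-3p and miR-148b-3p, where 5.79% of all miRNAs were higher at that level. When DESeq2 was used in its place, with its own scaling, 1 of the 3, miR-148a-3p, was called higher at an adjusted p under 0.05, where 1.54% of all miRNAs were. The groups did not overlap in 1 of the 3 members, miR-148a-3p, and 8.88% of all miRNAs tested had every Acu/LFES mouse above every sham mouse. Since the family was picked on this contrast, these counts describe it and lend it no support.

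**Figure D2:**
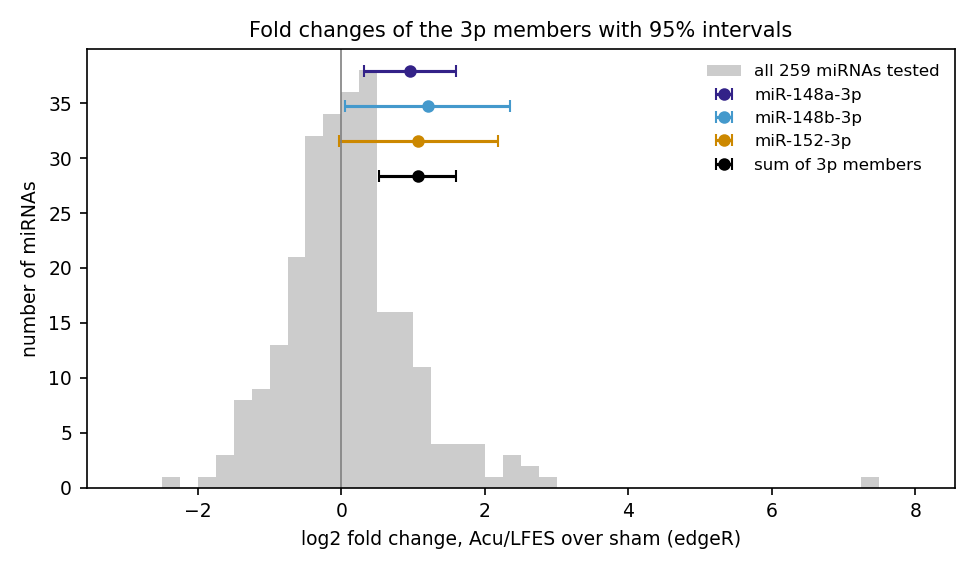
Log2 fold change of Acu/LFES over sham from edgeR for the 3p members and their sum (points, with 95% intervals), over the histogram of all 259 miRNAs tested (grey, number of miRNAs in bins of 0.25). The height of the points has no meaning. The members lie between 0.96 and 1.20, to the right of the median of all miRNAs at 0.050, and the interval of miR-152-3p includes 0.

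Library scaling cancels in the ratio of members within a library. Of the 3p counts, miR-148a-3p took 40.1%, 57.1% and 46.5% in sham mice 1 to 3 and 44.6%, 38.5% and 50.3% in mice 4 to 6. Its share had group means of 47.9% ± 8.58 and 44.5% ± 5.87 (SD, 3 mice each), closer to each other than the mice within either group. The shares of the other members varied more between mice. miR-148b-3p took 39.6% (exact 95% binomial interval 31.5% to 48.1%) of the 3p counts in sham mouse 3 and 39.7% (35.8% to 43.8%) in mouse 5, but 11.4% (9.68% to 13.3%) in mouse 6. miR-152-3p took 13.9% (8.69% to 20.6%) in sham mouse 3 and 21.7% (18.5% to 25.3%) in mouse 5, but 38.3% (35.6% to 41.1%) in mouse 6 and 40.5% (36.0% to 45.2%) in sham mouse 1. In both groups these shares differed between mice by more than counting error, and since the shares of a library add up to the whole, a higher share of a member lowers those of the others. Binomial and Poisson intervals cover counting error only.

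**Figure D3:**
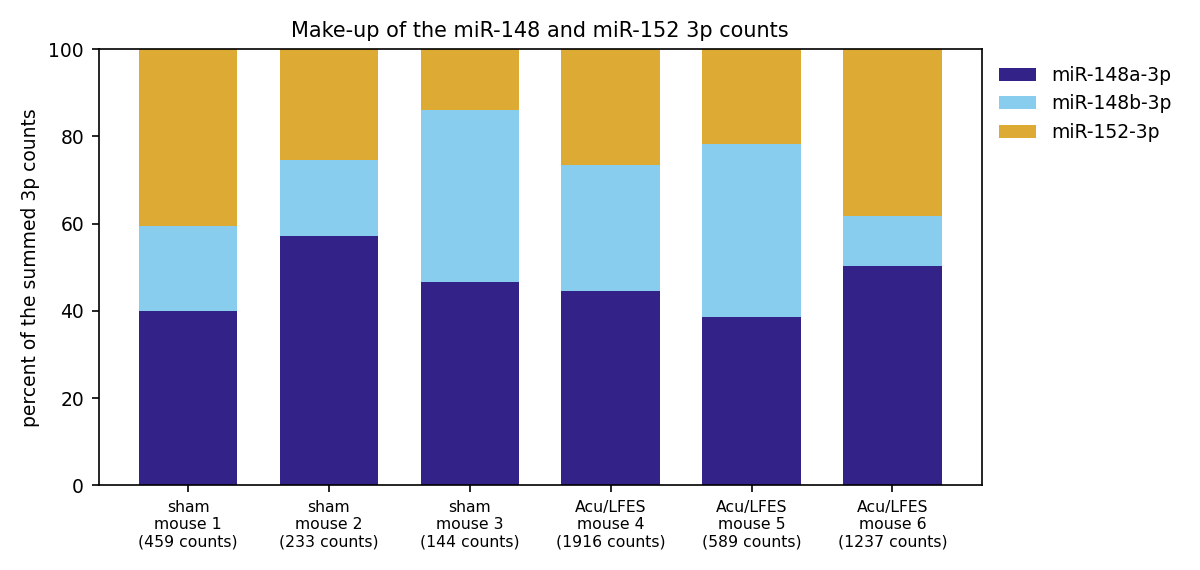
Percent of the summed 3p counts taken by each member in each mouse, with the summed count under the bar. miR-148a-3p stays between 38.5% and 57.1%, while miR-148b-3p runs from 11.4% in mouse 6 to 39.7% in mouse 5 and miR-152-3p from 13.9% in sham mouse 3 to 40.5% in sham mouse 1.

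The order of the members by level was then tested on the log2 ratio of their counts within each library, with 0.5 count added to each, over all 6 mice. miR-148a-3p exceeded miR-148b-3p in 5 of 6 mice, with a log2 ratio of 0.95 ± 0.85 (SD, n = 6) and a range from -0.04 in mouse 5 to 2.14 in mouse 6. It exceeded miR-152-3p in 5 of 6 mice as well, by 0.81 ± 0.60 (SD, n = 6), from -0.02 in sham mouse 1 to 1.72 in sham mouse 3. In a two-sided exact sign-flip permutation test, p was 0.0625 for each, or 0.0781 after Benjamini-Hochberg adjustment over the 5 pairs compared, so that neither passed 0.05. miR-148b-3p and miR-152-3p could not be ordered, since their log2 ratio was -0.14 ± 1.21 (SD, n = 6), from -1.75 in mouse 6 to 1.49 in sham mouse 3, and either was higher in 3 of 6 mice (two-sided exact sign-flip permutation test, p = 0.781, adjusted p = 0.781). Differences in how well the library kit ligates each sequence were not tested and also enter such a ratio.

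The 3p arm exceeded the 5p arm of its hairpin in 6 of 6 mice, both for miR-148a and for miR-148b. The log2 ratio of miR-148a-3p to miR-148a-5p was 6.28 ± 1.26 and that of miR-148b-3p to miR-148b-5p was 5.66 ± 2.22 (SD, n = 6 each). For each, p was 0.0313 in the two-sided exact sign-flip permutation test, the smallest that 6 mice allow, and the adjusted p was 0.0781. Because the 5p arms were at 0 counts in several libraries, the size of these ratios depends on the added 0.5 count.

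**Figure D4:**
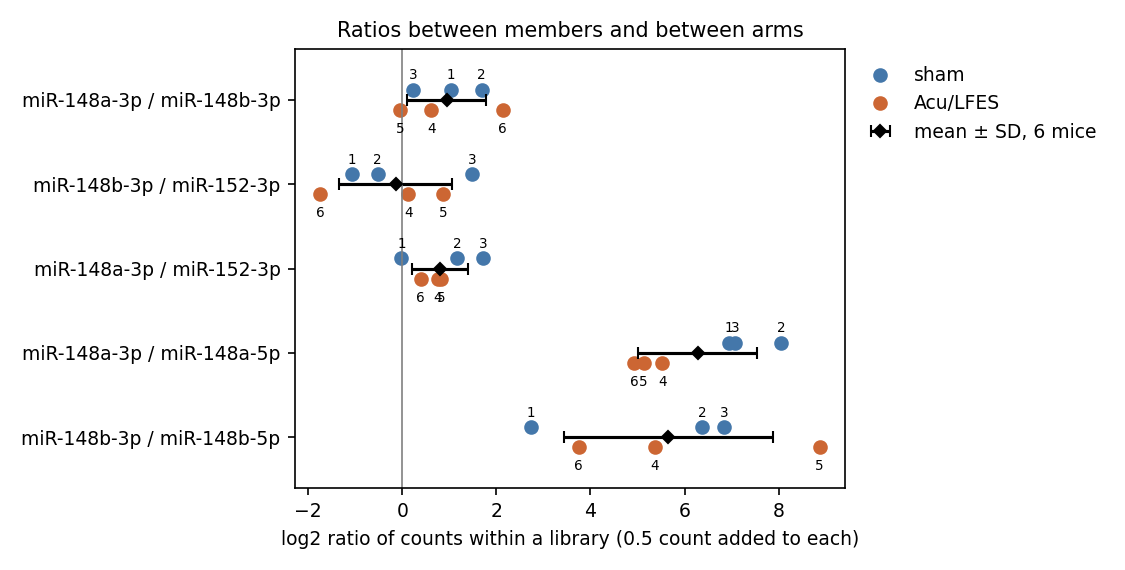
Log2 ratio of counts within a library (0.5 count added to each) for the 5 pairs compared. Coloured points are mice with their number, and the black diamond and bar are the mean and SD of 6 mice. The arm ratios lie far to the right of 0 in every mouse, and the ratio of miR-148b-3p to miR-152-3p falls on either side of it.

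The 5p arms, the passenger strands of the family, had 45 counts in all for miR-148a-5p and 36 for miR-148b-5p and were too low to be tested. miR-148a-5p had 1, 0 and 0 counts under sham and 18, 6 and 20 under Acu/LFES. A floor of 3 counts stood at 4.33 to 9.93 CPM in the sham libraries and at 1.80 to 6.25 CPM in the Acu/LFES libraries. Summed over the mice and per summed library size, the rate of miR-148a-5p was 19.3 times higher in Acu/LFES than in sham mice, with an exact 95% interval from 3.29 to 780 that rests on a single sham count. Measured against its own 3p arm, miR-148a-5p made up 0.541%, 0% and 0% of the hairpin's counts under sham and 2.06%, 2.58% and 3.12% under Acu/LFES. At 0 counts, the exact 95% upper limit of the share was 2.74% in sham mouse 2 and 5.36% in sham mouse 3. The limit of sham mouse 2 lies within the exact 95% intervals of mice 4 (1.23% to 3.24%), 5 (0.951% to 5.52%) and 6 (1.91% to 4.77%). The intervals of single sham and Acu/LFES libraries thus overlapped, which does not show that the shares were alike. A difference in this share between single libraries was not tested. Summed over mice, the share was 1 of 385 counts, 0.260% (exact 95% interval 0.00658% to 1.44%), in sham and 44 of 1747, 2.52% (1.84% to 3.37%), in Acu/LFES mice. Intervals on counts summed over mice, here and below, treat reads rather than mice as units. They leave out the spread between mice, so they do not test a difference between the groups.

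miR-148b-5p shares its seed with miR-148a-5p. It had 13, 0 and 0 counts under sham and 13, 0 and 10 under Acu/LFES, and its summed rate was 0.776 times that of sham (exact 95% interval 0.377 to 1.67). All sham counts came from mouse 1, and without that mouse the comparison was 0 against 23 counts, so that the direction of this ratio rests on 1 library. Its share of the hairpin's counts was highest in sham mouse 1, at 12.7% (exact 95% interval 6.96% to 20.8%). miR-152-5p, the arm outside the 5 members, had 0 counts in every sham mouse and in mouse 4, and 13 and 12 counts in mice 5 and 6. In mouse 4, where miR-152-3p had 507 counts, the exact 95% upper limit of the 5p share was 0.725%, whereas mouse 5 had 9.22% (exact 95% interval 5.00% to 15.3%). The Acu/LFES mice thus differed among themselves in this arm by more than counting error.

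**Figure D5:**
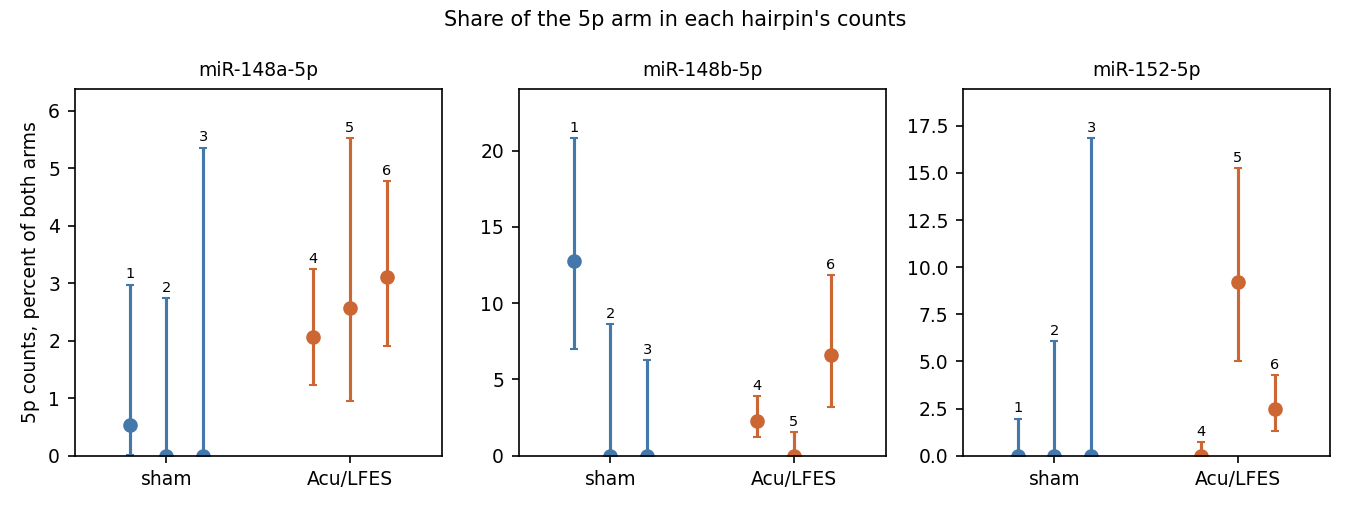
5p counts as percent of the counts of both arms of each hairpin, by mouse (points, with mouse numbers, each panel on its own scale), with exact 95% binomial intervals for counting error only. miR-148a-5p lies at 2.06% to 3.12% in the Acu/LFES mice and at 0% to 0.541% in the sham mice with overlapping intervals, and the other arms show no common order of the groups.

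Ratios to other miRNAs in the same library were read as a further description of the contrast. miR-103-3p, the serum reference of the study's qPCR, had 505, 587 and 163 counts under sham and 1731, 294 and 709 under Acu/LFES. The log2 ratio of miR-148a-3p to miR-103-3p was -1.62 ± 0.45 under sham and -0.53 ± 0.44 under Acu/LFES, and that to miR-16-5p, an abundant blood miRNA, was -4.85 ± 0.21 and -4.00 ± 0.35 (SD, 3 mice each). The groups did not overlap in either ratio, nor in those of the 3p sum to the same references. Of all miRNAs tested, 8.49% had a higher ratio to miR-103-3p and 5.02% a higher ratio to miR-16-5p in every Acu/LFES mouse. They overlapped in the ratio to miR-122-5p, the most liver-specific miRNA, which was -5.37 ± 1.04 under sham and -3.38 ± 1.53 under Acu/LFES (SD, 3 mice each). For miR-148b-3p and miR-152-3p the groups overlapped against all 3 references.

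In no list of markers of other cells that release miRNAs into the blood did every Acu/LFES mouse lie above every sham mouse. The 3 liver markers, miR-122-5p, miR-192-5p and miR-194-5p, summed to between 10307 and 23679 CPM in the sham mice and between 4072 and 17985 CPM in the Acu/LFES mice, and 2 of the 3 had a negative log2 fold change. The 5 red-cell markers took 62.6% to 74.6% of the counts in sham and 31.1% to 74.1% in Acu/LFES mice. Most of this was the miR-486 rows, at 61.7% to 74.0% and 29.2% to 73.5%. In mouse 6, miR-16-5p (8210 CPM) and miR-451a (943 CPM) lay within the range of the other mice. miR-144-3p was at 0 in 4 of 6 libraries. The 7 muscle markers summed to between 10115 and 11285 CPM under sham and between 7499 and 12478 CPM under Acu/LFES. The cardiac miR-208a-3p and miR-208b-3p were at 0 throughout. miR-499-5p, which was too low to be tested, was at 0 in every sham mouse and in mouse 5. In mice 4 and 6 it was 30.6 and 18.3 CPM. Platelet and white-cell markers, 5 in number, summed to 6424 to 7845 CPM and 5073 to 7067 CPM, and the 2 endothelial markers to 2156 to 2595 CPM and 1490 to 2175 CPM, so that the groups overlapped in each of these lists. The endothelial sums met only at their edge, and miR-126a-5p was lower in every Acu/LFES mouse (1930, 2153 and 1927 CPM against 1741, 1304 and 1471 CPM). So were 21 of the 259 miRNAs tested, miR-126a-5p included. Of the markers tested, 2 of 4 red-cell, 3 of 3 muscle, 4 of 5 platelet and white-cell and 2 of 2 endothelial ones had a negative log2 fold change. The 2 red-cell ones were miR-486a-5p and miR-486b-5p, listed with identical counts, whereas miR-451a and miR-16-5p were at 0.34 and 0.15. The muscle values were -0.011 for miR-1a-3p, -0.042 for miR-133a-3p and -0.77 for miR-206-3p.
Of the 4 pancreas markers, the islet miRNA miR-375-3p was lower in every Acu/LFES mouse, at 464, 348 and 493 CPM in sham mice 1, 2 and 3 against 179, 192 and 221 CPM in mice 4, 5 and 6. It too is among the 21 of 259 miRNAs tested that were lower in every Acu/LFES mouse. The acinar miR-216a-5p and miR-216b-5p were at 0 in every mouse, and miR-217-5p was at 0 in all but mouse 4, where it was 3.00 CPM. The part of these sources in the levels of the family was not tested.

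The miRNAs whose pattern was most like that of miR-148a-3p were sought among the other 258 tested, by Pearson's r of log2 CPM plus 0.5 over the 6 mice. All mice and the group difference enter this r, which is a description. The highest were miR-143-3p (r = 0.95, Spearman's rho 0.94), miR-34a-5p (0.94 and 0.76), miR-221-3p (0.89 and 0.83), miR-181d-5p (0.88 and 0.71) and miR-15b-3p (0.88 and 0.77). miR-143-3p, a smooth-muscle miRNA, was 614 ± 211 CPM under sham and 1257 ± 305 CPM under Acu/LFES, and miR-181d-5p was 101 ± 7.40 and 205 ± 31.9 CPM (SD, 3 mice each). miR-34a-5p, a target of p53, was at 0 in every sham mouse, so its r depends on the added 0.5. At the other end stood miR-375-3p (r = -0.96, rho -0.83) and miR-99b-5p (r = -0.89, rho -0.94). Within the family, miR-152-3p ranked 12 of the 258 in likeness to miR-148a-3p (r = 0.82, rho 0.83) and miR-148b-3p ranked 82 (r = 0.41, rho 0.26).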

How the data were processed

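Small RNA of serum exosomes from 3 sham and 3 Acu/LFES mice was sequenced, 1 library per mouse. The table the authors deposited holds whole read counts for each mature miRNA, without normalization. Per the labels, the submitters' processing notes name bcl2fastq, cutadapt 1.6 and DESeq2 1.26.0, while the aligner, the counter, the annotation and the mismatches allowed are not given in the sources used here. The mismatches allowed bear on whether reads could have been shared among the 3p members, which was not tested.

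edgeR 4.0.16 in R 4.3.3 was run on all counts after its default filter, which 259 miRNAs passed, with TMM factors, its quasi-likelihood test and Benjamini-Hochberg adjustment at 0.05. Standard errors were taken from the F statistic. The script was tested on simulated data. Ratios within a library were compared by two-sided exact sign-flip permutation tests. Floors were set at 3 counts. The members, the marker lists and the rule for named miRNAs (the members, the same seed, the 5 highest and 2 lowest by likeness, markers and references) were chosen with earlier results of these data known. Alternatives were DESeq2 1.42.0, other scalings and filters, another pseudocount and each mouse left out. For the 5p arms, sham mouse 1 was left out after seeing the data. Python 3.11.15 with matplotlib 3.10.9 made the figures. Nothing says whether mice shared a day or cage.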

Additional observations from a re-analysis of the deposited data

How the results depend on the processing

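The log2 fold changes of the 3p members and of their sum were positive under every alternative run. Over the alternatives that kept all mice they went from 0.92 to 1.67 for miR-148a-3p, from 1.13 to 1.53 for miR-148b-3p, from 1.02 to 1.72 for miR-152-3p and from 1.01 to 1.66 for the sum. With each mouse left out in turn they went from 0.89 to 1.08, from 0.79 to 1.61, from 0.73 to 1.76 and from 0.99 to 1.23. With total counts the median of all miRNAs rose from 0.050 to 0.71, so relative to it miR-148a-3p was 0.96, miR-148b-3p 0.82 and miR-152-3p 1.01 higher. With no filter the median, then over 954 miRNAs in place of 259, was 0.68, and the members stood 0.34, 0.51 and 0.43 above it, against 0.91, 1.15 and 1.02 as reported. Their own log2 fold changes were 1.02, 1.19 and 1.11 with no filter, against 0.96, 1.20 and 1.07 as reported, so it was mainly the median that moved. With total counts the groups did not overlap in 2 members in place of 1, and 41 of 259 miRNAs were higher and 0 lower in every Acu/LFES mouse, in place of 23 and 21. At an unadjusted p under 0.05, calls over all miRNAs were 15 higher and 8 lower, against 23 and 0 with total counts, 20 and 6 without miR-486a-5p and miR-486b-5p in the totals, 7 and 0 with scaling to miR-103-3p, 9 and 9 with at least 10 counts in every library, and 39 and 14 of 954 with no filter. The number of members called at an adjusted p under 0.05 was 1 with DESeq2, which called 4 miRNAs higher and 5 lower, and 0 in edgeR under every other alternative, each mouse left out included, with 1 to 3 members at an unadjusted p under 0.05. The cause was not tested. Identical rows kept once, an alternative chosen after seeing the data, also gave 0. The log2 ratio of miR-148b-3p to miR-152-3p was -0.14 and went from -0.47 to 0.18 with each mouse left out, turning positive without sham mouse 1 (0.044) or Acu/LFES mouse 6 (0.18). With 5 mice the sign-flip test cannot go below 0.0625. A pseudocount of 1 moved the arm ratios to 5.85 and 5.14. No paired analysis was possible because the mouse numbers are not shared between the groups. Depth limits the 5p arms, whose fold changes are not reported here. They entered the count of members called in some alternatives. The members tested were 5 with no filter and 4 without sham mouse 2 or 3 or Acu/LFES mouse 4 or 5, in place of 3.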
